A study of Mus musculus with 4 samples.

Results

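The 9 cytokine genes examined here are Il1a, Il1b, Il1rn, Il6, Tnf, Il10, Il18, Il33 and Csf1, chosen by name as inflammatory cytokines and their inhibitors among the 20076 gene rows of a single-cell RNA-sequencing (scRNA-seq) table of whole mouse lung. All 9 were present, with 111 to 28826 unique molecular identifiers (UMIs, each the tag of 1 captured RNA molecule) over 9363 cells. The data came from 4 mice, 2 WT and 2 ERG CKO, with 1 library each. WT mice were Erg fl/fl without Cre, and ERG CKO mice were Cdh5-CreER(T):Erg fl/fl, in which a tamoxifen-inducible Cre under the endothelial Cdh5 promoter acts on the floxed Erg alleles. Both groups were on the C57/BL6 background and carried the floxed Erg allele, each mouse received 0.5 mg of tamoxifen on each of 5 days, and its lungs were removed 90 days after the last dose. The age of these 4 mice was not given in the sources used here. ERG is an ETS-family transcription factor that is enriched in endothelial cells (ECs).

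The WT libraries held 2264 and 2150 cells (replicates 1 and 2, an order kept throughout) and the ERG CKO libraries 3097 and 1852, with 11263911 to 18646776 UMIs each. Cell names were rebuilt from marker genes, which placed 7819 cells in 18 classes and left 1544 cells in 5 clusters without a name. The 9 cytokines were kept out of the genes used to cluster cells. Xist was read in replicate 1 of each group and Ddx3y in replicate 2 of each group, so the sexes were balanced between the groups. Erg in ECs stood at 86.7 and 88.4 UMIs per 1000000 UMIs of the class (CPM) in WT and at 105 and 82.7 CPM in ERG CKO (log2 fold change 0.07, SE 0.16, edgeR quasi-likelihood adjusted p = 0.883). The exon that Cre removes was not given in the sources used here and the libraries read transcript ends, so these counts do not check the deletion. All 9 EC markers were detected in the EC class. Libraries of the same group differed by more than counting noise (chi-square per degree of freedom 12.8 in WT versus 14.0 in ERG CKO), and 7 barcodes were shared between libraries.

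Cytokines are secreted proteins that carry signals between immune, stromal and endothelial cells. Interleukin-1 alpha and beta, encoded by Il1a and Il1b, act through the same receptor, and the antagonist encoded by Il1rn occupies that receptor without signalling. Interleukin-18 and interleukin-1 beta are made as precursors that inflammasome caspases cut, so transcript levels do not measure the active protein. Interleukin-33 is stored in the nucleus of epithelial and stromal cells and released upon damage. Interleukin-6 and tumour necrosis factor drive acute inflammation, interleukin-10 restrains it, and macrophage colony-stimulating factor, encoded by Csf1, maintains monocytes and macrophages through the receptor encoded by Csf1r. In the lung, alveolar macrophages, neutrophils and monocytes are well-known cytokine producers, while aerocytes (aCap ECs), the capillary cells that face the air spaces, and general capillary cells (gCap ECs) form the alveolar capillary bed.

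The genes lie at separate loci apart from Il1a and Il1b, which are neighbours on chromosome 2 of GRCm38. Il1a spans 129299610 to 129309972 and Il1b spans 129364570 to 129371139, both on the minus strand, with 54597 bases between them. Il1rn lies on chromosome 2 from 24336853 to 24351494, Il6 on chromosome 5 from 30013114 to 30019981, Tnf on chromosome 17 from 35199381 to 35202007, Il10 on chromosome 1 from 131019845 to 131024974, Il18 on chromosome 9 from 50554827 to 50581840, Il33 on chromosome 19 from 29925114 to 29960718 and Csf1 on chromosome 3 from 107741048 to 107760469. RefSeq promoter windows of build GRCm38.p6 matched 8 of the 9 genes, with 11 windows in all, and none matched Il10. The 250 bases upstream of the start site are shown for Il1a and Csf1, the cytokines whose level in aCap ECs differed between WT and ERG CKO, and for Il1b, the most abundant cytokine and neighbour of Il1a. Capitals mark GGAA, the core that ETS factors bind, or TTCC, its complement on the other strand. The windows are chr2:129309973-129310222 for Il1a, chr3:107760470-107760719 for Csf1 and chr2:129371140-129371389 for Il1b, each read on the minus strand from 5′ to 3′.
Il1a: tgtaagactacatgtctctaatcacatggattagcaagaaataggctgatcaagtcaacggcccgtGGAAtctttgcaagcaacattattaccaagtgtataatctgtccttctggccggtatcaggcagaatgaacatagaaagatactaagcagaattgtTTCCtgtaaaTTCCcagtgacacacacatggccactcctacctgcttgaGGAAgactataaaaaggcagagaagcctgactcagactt
Csf1: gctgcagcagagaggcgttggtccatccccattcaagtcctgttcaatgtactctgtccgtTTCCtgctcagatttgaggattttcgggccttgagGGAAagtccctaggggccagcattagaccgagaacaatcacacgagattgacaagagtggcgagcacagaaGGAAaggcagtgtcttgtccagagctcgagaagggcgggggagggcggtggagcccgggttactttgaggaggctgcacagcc
Il1b: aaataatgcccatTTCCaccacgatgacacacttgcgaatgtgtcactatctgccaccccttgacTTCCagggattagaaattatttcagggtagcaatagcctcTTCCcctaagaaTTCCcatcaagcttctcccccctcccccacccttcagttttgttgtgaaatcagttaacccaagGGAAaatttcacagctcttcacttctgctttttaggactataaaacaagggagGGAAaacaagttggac
The Il1a window held 4 such matches, the Csf1 window 3 and the Il1b window 6. These counts are a description of the letters, since 93.4% of 32851 mouse promoter windows of the same length held GGAA on either strand, with a median of 3 matches. An NF-kB site, searched on both strands and able to overlap TTCC, was found in the Csf1 window and the Il6 window and in 7.25% of all windows. The AP-1 site TGANTCA was found in the Il1a window, the Il6 window, 1 of the 3 Il1rn windows and in 6.75% of all windows.

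The cytokines differed in their main source, and for Il10 interstitial macrophages and non-classical monocytes held equal shares. Il1b was the most abundant, with 28826 UMIs in 1493 cells (15.9% of all cells), followed by Il18 with 5015 UMIs in 833 cells, Il1rn with 2337 in 733 cells, Csf1 with 1716 in 1008 cells, Tnf with 1512 in 682 cells and Il6 with 1447 in 244 cells. Il1a had 552 UMIs in 292 cells, Il33 had 490 in 166 cells and Il10 had 111 in 44 cells. No cytokine was detected in 6147 cells and 1 was detected in 1935 cells, while 18 cells held 6 of the 9. Classes were compared with each other without a test, because they came from clustering the same cells, and a class is called highest by its mean CPM over libraries and the main source by its share of all UMIs of the gene, which grows with the number and depth of its cells. Levels of different genes were not adjusted for transcript length, so only levels of the same gene are compared below.

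**Figure D1:**
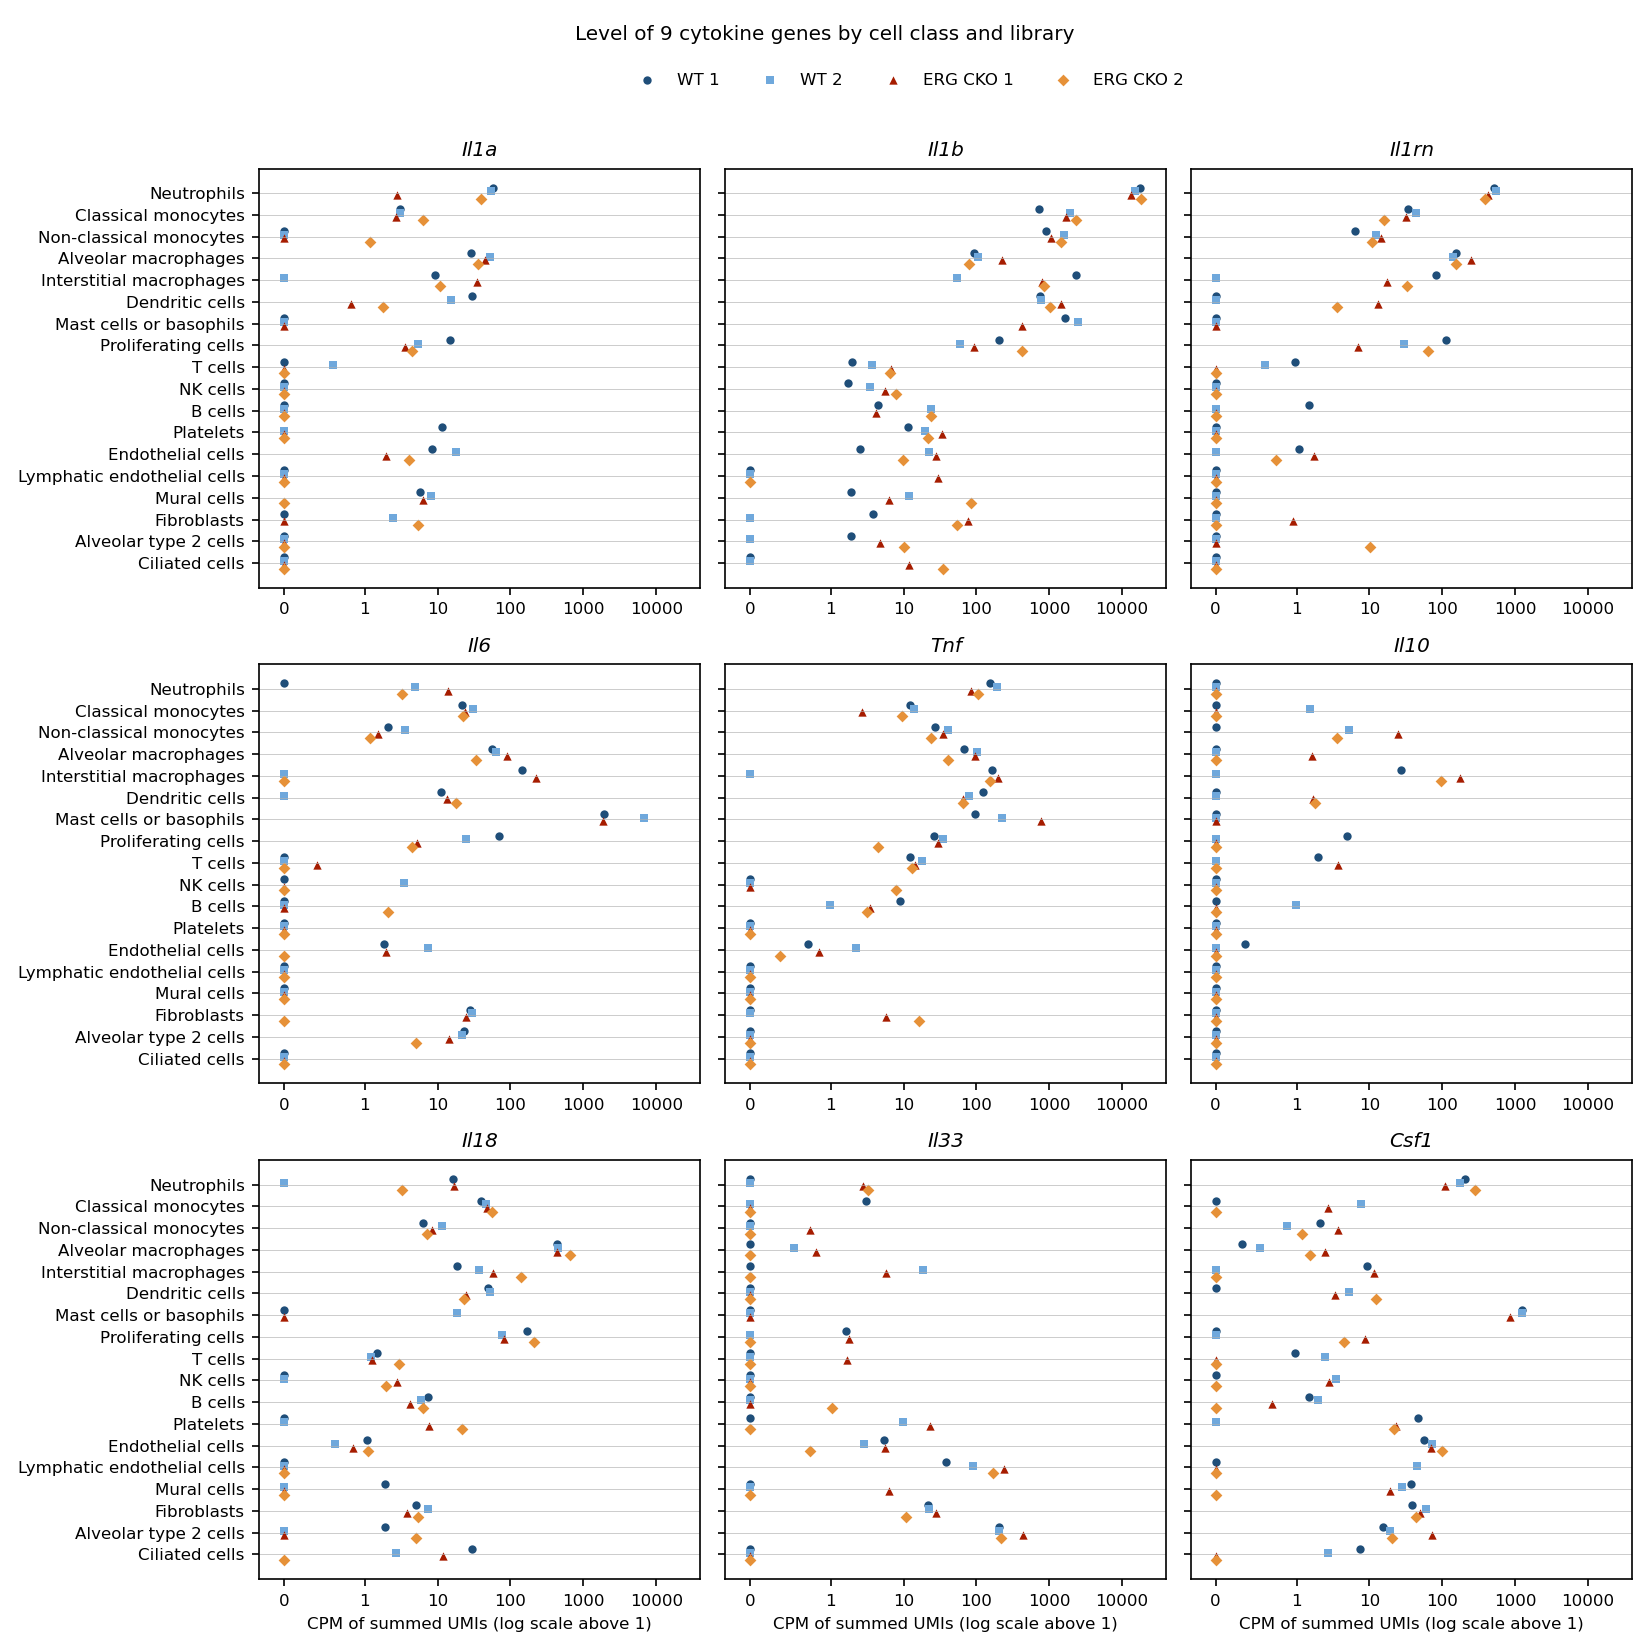
Level of each of the 9 cytokine genes (panels) in each named cell class (rows) as CPM of summed UMIs on a symmetrical log axis, with 1 point per library, WT and ERG CKO replicates in separate colours. Il1b in neutrophils, between 13288 and 18004 CPM, is the highest level plotted, and most cytokines reach their highest level in macrophages, neutrophils or mast cells or basophils.

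Il1b was led by neutrophils, which held 53.6% of its UMIs. Neutrophils stood at 17378 and 15059 CPM in WT and at 13288 and 18004 CPM in ERG CKO, and 94.7% and 96.4% of WT versus 98.8% and 98.9% of ERG CKO neutrophils had at least 1 UMI. Classical monocytes held 719 and 1941 CPM in WT and 1686 and 2300 CPM in ERG CKO, and non-classical monocytes 908 and 1598 CPM in WT and 1071 and 1461 CPM in ERG CKO. These monocyte levels overlapped between the classes and between the genotypes, and neither reached the range of neutrophils. Dendritic cells held 756 and 767 CPM in WT and 1469 and 1010 CPM in ERG CKO. Mast cells or basophils held 272 Il1b UMIs in 34 cells and interstitial macrophages 477 in 80 cells, both classes too small for the main test. Alveolar macrophages stood lower, at 91.2 and 104 CPM in WT and 224 and 78.9 CPM in ERG CKO, and 36.3% of them had a UMI. Lymphocytes also gave Il1b, with a UMI in 4.22% of B cells, 2.73% of T cells and 2.22% of NK cells, and the origin of these UMIs was not tested. The 3.35% of ECs with a UMI was in the same range, at a median of 4518.5 UMIs per EC and 4517 per B cell.

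In the main fit none of the Il1b comparisons in myeloid classes was called by the edgeR quasi-likelihood test, whose threshold was an adjusted p of 0.05 over all genes of a class. With no filter on low counts edgeR called Il1b in dendritic cells (0.76, adjusted p = 0.00411) and in alveolar macrophages (0.66, adjusted p = 0.00345). The log2 fold change of ERG CKO over WT was −0.01 in neutrophils (SE 0.20, adjusted p = 1.0), where 0.0% of 2939 genes were called. It was −0.05 in non-classical monocytes (SE 0.23) and 0.55 in classical monocytes (SE 0.36), with 0.0% of 7181 and 0.0245% of 4075 genes called in those classes. In dendritic cells, where 0.316% of 5071 genes were called, Il1b gave 0.70 (SE 0.20, edgeR adjusted p = 0.271), and the ERG CKO libraries were above both WT libraries. Non-classical monocyte markers in dendritic cells summed to 225 and 90.4 CPM in WT and 306 and 270 CPM in ERG CKO. Classical monocyte markers summed to 513 and 645 CPM in WT and 493 and 521 CPM in ERG CKO. The part of such cells was not tested. In T cells Il1b gave 1.26 (SE 0.54, edgeR adjusted p = 0.999) at 6.62 CPM or less, a level that overlapped that of NK cells, and 0.0% of 8063 genes were called.

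The 1 called test among cytokines in the named classes was Il1b in fibroblasts, the matrix-producing stromal cells of the lung. When clustered again, 85 of the 398 cells of this class were named alveolar and 22 adventitial fibroblasts. The others kept no finer name, among them 125 of low depth with Nrgn, Slc34a2 and Pf4 leading. A further 89 were led by Hbb-bs, Hbb-bt and Cldn5, and 59 by Akap5 and Scgb1a1. Fibroblast values are those of the whole class, and the part of these cells was not tested. Fibroblasts held 3 and 0 Il1b UMIs in WT versus 80 and 10 in ERG CKO, which is 3.84, 0, 76.2 and 53.6 CPM. Il1b was higher by a log2 fold change of 4.70 (SE 0.59, edgeR quasi-likelihood adjusted p = 0.00166), in a class where 0.634% of 7726 genes were called. It passed the filter on low counts (16.8 CPM in this class) through the ERG CKO libraries alone, so that a tested value had to be a higher one. A single cell of ERG CKO replicate 1 held 63 of the 93 UMIs. That cell had 61504 UMIs, 6 of 7 fibroblast markers, 9 of 9 EC markers and 6 of 6 interstitial macrophage markers, and Scrublet did not call it a doublet. Without it the counts were 3, 0, 17 and 10 UMIs, and Il1b then fell under the filter on low counts and was not tested, as it was without ERG CKO replicate 1 and after thinning each cell to 1000 UMIs. The summed level of 6 interstitial macrophage markers in fibroblasts was 65.2 and 71.1 CPM in WT and 276 and 1012 CPM in ERG CKO with all 6 detected, and that of 8 neutrophil markers was 6.40 and 9.81 CPM in WT and 37.1 and 10.7 CPM in ERG CKO with Ly6g at 0. Their part in the Il1b result was not tested.

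Il1rn was highest per cell class in neutrophils and most of its UMIs were in alveolar macrophages, whose cells were deeper. With every cell thinned to 1000 UMIs, neutrophils held 126 of the 246 Il1rn UMIs and alveolar macrophages 100. Neutrophils held 516 and 551 CPM in WT and 428 and 381 CPM in ERG CKO, so that both ERG CKO libraries were below both WT libraries, yet the difference was not called (log2 fold change −0.35, SE 0.22, edgeR adjusted p = 0.964). Alveolar macrophages held 156 and 139 CPM in WT and 245 and 155 CPM in ERG CKO, made up 70.1% of the UMIs of Il1rn, and were positive in 69.8% to 79.1% of cells. Their log2 fold change of 0.45 (SE 0.19) was not called after adjustment over 9273 genes (edgeR adjusted p = 0.973), of which 0.0% were called. The difference of the genotype effect between these classes was −0.66 for neutrophils against alveolar macrophages (SE 0.36, edgeR adjusted p = 1.0), with 0.0684% of 8768 genes called in that fit.

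Il18 was almost confined to alveolar macrophages, the resident macrophages of the air spaces, which held 89.4% of its UMIs. Their level was 431 and 448 CPM in WT and 434 and 646 CPM in ERG CKO, with 91.8% and 88.4% of WT cells positive and 88.0% and 89.5% of ERG CKO cells. The genotypes overlapped in the share of positive cells, and the log2 fold change of 0.31 was not called (SE 0.17, edgeR adjusted p = 0.994). Proliferating cells, a class that mixes dividing cells of several lineages, followed at 75.9 to 210 CPM, and their alveolar macrophage markers summed to 2578 to 8162 CPM. Dendritic cells held 48.6 and 51.6 CPM in WT and 24.8 and 23.0 CPM in ERG CKO without overlap (log2 fold change −1.06, SE 0.34), a difference that was not called (edgeR adjusted p = 0.327). The alveolar macrophage markers in dendritic cells summed to 146 and 176 CPM in WT and 64.6 and 53.0 CPM in ERG CKO, and their part was not tested.

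Il33 came mainly from alveolar type 2 cells, the surfactant-secreting epithelium, with 64.7% of its 490 UMIs in 52 cells. The level was 205 and 205 CPM in WT and 429 and 219 CPM in ERG CKO, and 1 cell of ERG CKO replicate 1 held 74 of the 90 UMIs of that library. The class had under 10 cells in an ERG CKO library and was fitted only with a minimum of 5 cells, an alternative added after the data were seen, where Il33 gave a log2 fold change of 0.58 (SE 0.29, edgeR adjusted p = 0.808). Fibroblasts held 11.6% of the UMIs, at 21.7 and 22.1 CPM in WT and 27.6 and 10.7 CPM in ERG CKO (log2 fold change 0.13, SE 0.46). Within them the sub-cluster with adventitial markers held 273 and 183 CPM in WT and 152 and 71.5 CPM in ERG CKO, from 22 cells. ECs held 52 UMIs of Il33, 34 of them in venous ECs, where the levels were 55.6 and 21.9 CPM in WT and 17.2 and 10.8 CPM in ERG CKO. Over all ECs the log2 fold change was −0.23 (SE 0.74, edgeR adjusted p = 0.923), and the difference between ECs and fibroblasts was −0.15, with 0.748% of 11095 genes called in that fit.

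**Figure D2:**
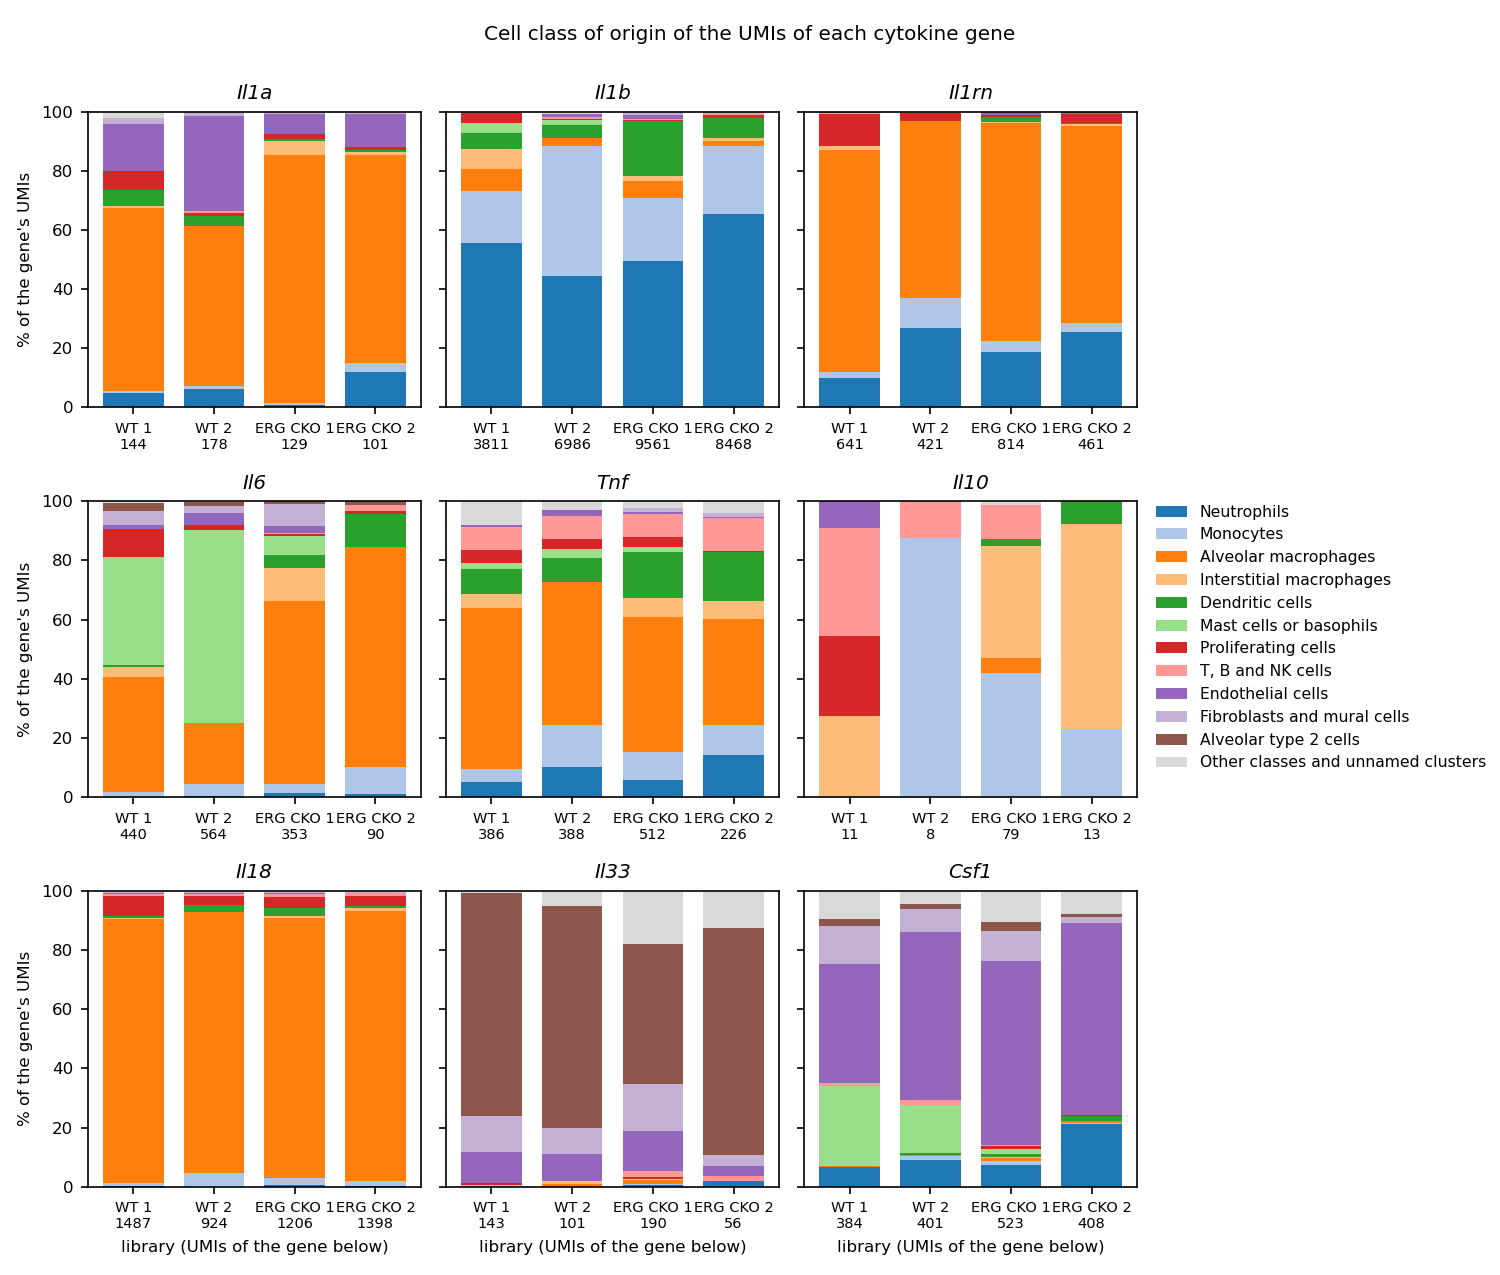
Share of the UMIs of each cytokine gene (stacked bars, in percent) that lay in each cell class in each library, with the UMIs of the gene under each bar. Il18 lies mostly in alveolar macrophages in all 4 libraries, Il1b mostly in neutrophils and monocytes, and ECs hold the largest share of Csf1 in each library (40.4% to 65.0%), while the Il6 of mast cells or basophils (160 and 368 UMIs in WT, 22 and 0 in ERG CKO) differs widely between libraries.

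Il1a, which encodes an interleukin-1 agonist that is active without cleavage, was led by alveolar macrophages with 65.9% of its UMIs. They stood at 28.9 and 52.8 CPM in WT and at 44.3 and 35.9 CPM in ERG CKO, and 23.5% to 39.5% of cells were positive. The genotypes overlapped (log2 fold change 0.04, SE 0.26, edgeR adjusted p = 0.998). Neutrophils held 7 and 11 UMIs in WT versus 1 and 12 in ERG CKO, and dendritic cells 8 and 6 in WT versus 1 and 1 in ERG CKO. Il1a was read in 0 of 829 B cells and 0 of 360 NK cells, which allows shares of up to 0.362% and 0.833%, so the 2.35% of ECs with a UMI stood above these classes. ECs were the next largest source, with 18.1% of the UMIs.

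ECs held 23 and 57 UMIs of Il1a in WT and 9 and 11 in ERG CKO, equal to 8.35 and 18.1 CPM in WT and 1.93 and 4.10 CPM in ERG CKO. The log2 fold change was −2.28 (SE 0.52) and missed the threshold in edgeR (adjusted p = 0.0690), while DESeq2 on the same sums called it (adjusted p = 0.0261). In ECs 3.04% of 10681 genes were called. The genotype effect in ECs differed from that in alveolar macrophages by −2.30 (SE 0.42, edgeR adjusted p = 0.0202), in a fit where 0.635% of 11491 genes were called. This difference was not called without WT replicate 2 (adjusted p = 0.0609) or without ERG CKO replicate 1 (−1.56, adjusted p = 0.180). Replicate 1 was female and replicate 2 male in both groups, so a fit with the replicate number as a block is also one with sex. In that fit Il1a in ECs was called (−2.16, edgeR adjusted p = 0.00452) and the difference from alveolar macrophages was not (−2.17, edgeR adjusted p = 0.0816).

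ECs were then divided into sub-clusters, a step chosen after these values were seen, and most Il1a of the endothelium lay in aCap ECs. This sub-cluster held 308 of 2510 ECs (46 and 71 in WT, 103 and 88 in ERG CKO) and passed all 7 of its markers. It contained 86 of the 100 EC UMIs of Il1a, against 4 in gCap ECs, 1 in venous ECs, 0 in arterial ECs and 9 in ECs without a finer name. The gCap ECs joined 2 sub-clusters, 1 of them led by interferon-response genes such as Ifit1, Cxcl10 and Isg15. These passed 3 and 5 of the 7 gCap markers. Another sub-cluster of 418 ECs passed 6 of 7 but was left without a finer name, because its leading genes marked another class. The gCap values and cell numbers here and below leave these 418 cells out. In aCap ECs the level was 64.1 and 106 CPM in WT and 6.09 and 11.5 CPM in ERG CKO. The WT level exceeded that of alveolar macrophages in both WT libraries. Il1a was read in 26.1% (95% Wilson interval 15.6 to 40.3) and 36.6% (26.4 to 48.2) of WT aCap ECs and in 1.94% (0.534 to 6.81) and 5.68% (2.45 to 12.6) of ERG CKO aCap ECs. The genotypes did not overlap, and the median depth was 6902 and 7455 UMIs per WT cell and 5965 and 5718 per ERG CKO cell. Il1a was lower by a log2 fold change of −3.35 (SE 0.43, edgeR quasi-likelihood adjusted p = 0.000369).

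Csf1 moved the other way in the same cells. aCap ECs held 1 and 6 UMIs in WT versus 55 and 49 in ERG CKO, which is 3.05 and 11.5 CPM against 83.7 and 93.8 CPM. The share of positive cells was 2.17% and 5.63% in WT versus 31.1% and 29.5% in ERG CKO. Csf1 was higher by a log2 fold change of 3.37 (SE 0.43, edgeR quasi-likelihood adjusted p = 0.00036), again without overlap. gCap ECs expressed Csf1 in both genotypes, at 66.4 and 65.3 CPM in WT and 49.4 and 74.3 CPM in ERG CKO (log2 fold change −0.17, SE 0.24, adjusted p = 0.915), and venous ECs held 29.9 and 97.0 CPM in WT and 43.1 and 53.9 CPM in ERG CKO (log2 fold change −0.61, adjusted p = 0.726). Thus WT aCap ECs stood below WT gCap ECs, and both ERG CKO aCap levels were above all 4 gCap levels. The difference of the genotype effect between aCap and gCap ECs was 3.54 for Csf1 (SE 0.49, edgeR adjusted p = 4.7e-05). For Il1a it was −4.07 (SE 1.67, adjusted p = 0.198), with only 4 UMIs in gCap ECs.

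**Figure D3:**
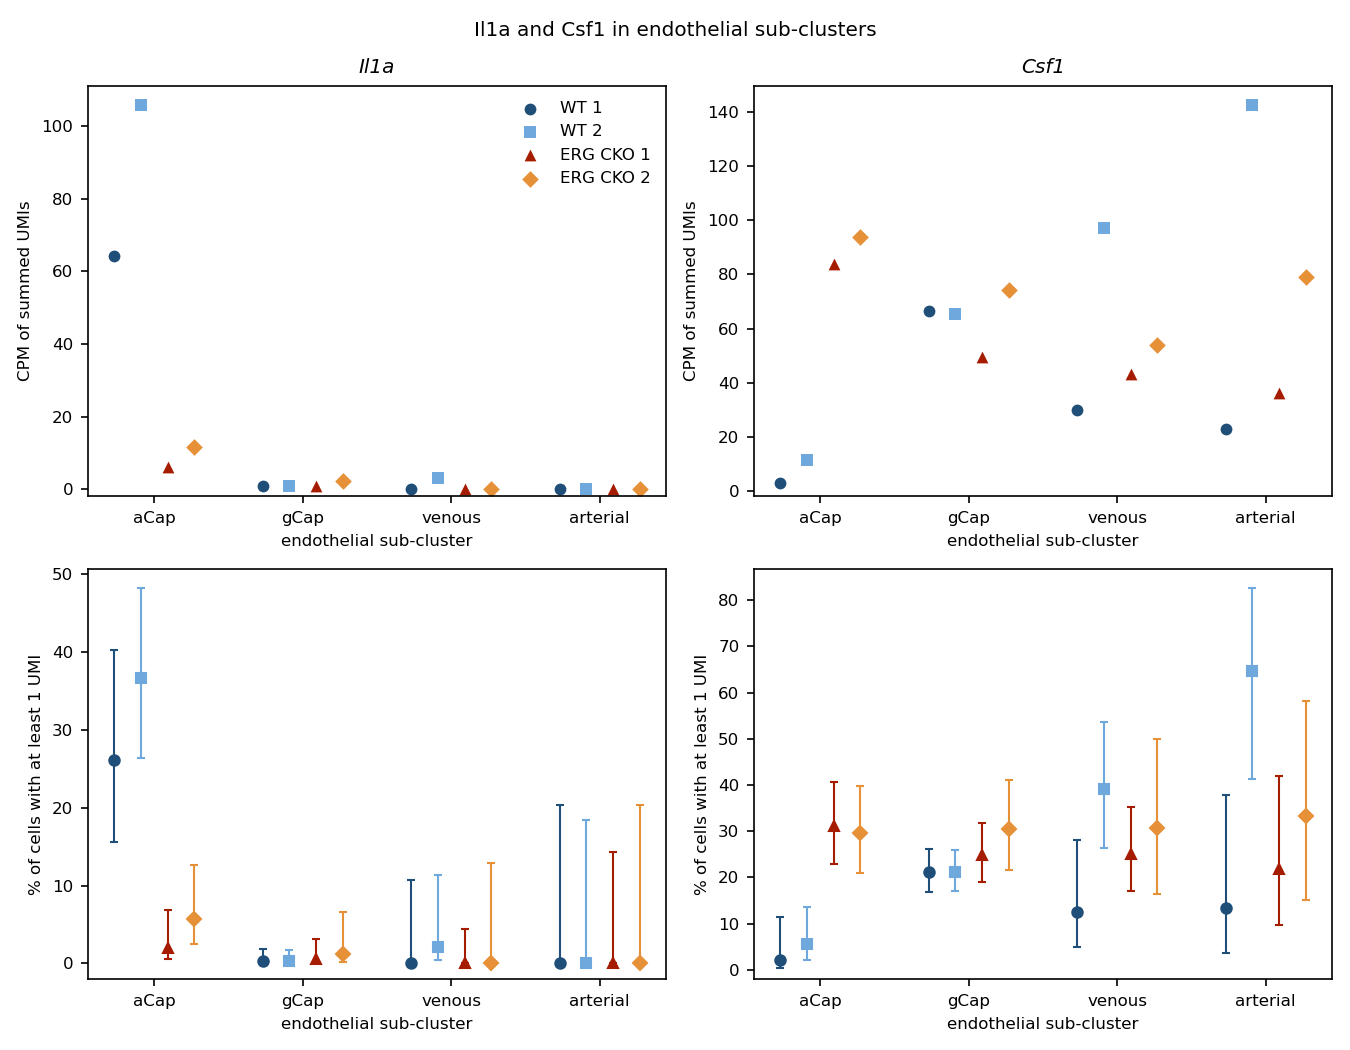
Il1a and Csf1 (columns) in 4 EC sub-clusters, as CPM of summed UMIs (upper row) and as percent of cells with at least 1 UMI (lower row), 1 point per library. Il1a is seen almost only in WT aCap ECs (64.1 and 106 CPM), and Csf1 in aCap ECs rises from 3.05 and 11.5 CPM in WT to 83.7 and 93.8 CPM in ERG CKO.

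Many genes changed in aCap ECs, so that 9.7% of the 6773 genes tested there were called, against 0.35% of 8851 in gCap ECs, 0.376% of 4784 in venous ECs and 0.0% of 2155 in arterial ECs. In the fit of aCap against gCap ECs 5.78% of 7928 genes were called. Il1a passed the filter on low counts (19.2 CPM in aCap ECs) through the WT libraries alone and Csf1 through the ERG CKO libraries alone, so the direction of each tested value was set by the filter. With no filter the log2 fold changes were −3.33 and 3.39. Both cytokine calls in aCap ECs stood in every alternative in which the gene was tested, with log2 fold changes from −3.80 to −2.88 for Il1a and from 2.89 to 4.74 for Csf1. They also stood in ECs picked by at least 1 UMI of both Ednrb and Car4, genes of aerocytes, in place of the sub-cluster (54 and 78 WT and 128 and 115 ERG CKO cells). There Il1a gave −3.22 (edgeR adjusted p = 0.000144) and Csf1 gave 2.76 (edgeR adjusted p = 9.86e-05). After thinning to 1000 UMIs per cell, Il1a was read in 15.9% and 8.45% of WT versus 0.971% and 1.14% of ERG CKO aCap ECs, and Csf1 in 0 of 44 and 1 of 71 WT and in 7 of 103 and 4 of 88 ERG CKO aCap ECs, where 0 of 44 allows a share of up to 6.82%.

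Other values moved with genotype in aCap ECs. The 7 aCap markers summed to 12122 and 11483 CPM in WT and 4483 and 6596 CPM in ERG CKO, and the 9 EC markers to 24434 and 24113 CPM in WT and 13666 and 13881 CPM in ERG CKO, with all markers detected. Their part in the cytokine results was not tested. The 8 alveolar macrophage markers, whose cells also carry Il1a, summed to 116 and 106 CPM in WT and 36.5 and 46.0 CPM in ERG CKO, with Marco and Siglecf at 0 in all 4 libraries, against 19131 CPM or more among alveolar macrophages themselves. Neutrophil markers, whose cells carry Csf1, summed to 9.16 and 9.61 CPM in WT and 15.2 and 15.3 CPM in ERG CKO, with Ly6g and Cxcr2 at 0. Erg itself gave a log2 fold change of 0.06 in aCap ECs (edgeR adjusted p = 0.956).

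Over all ECs, the main source of Csf1 with 56.6% of its UMIs, the genotypes were closer. Of the 972 EC UMIs of Csf1, 498 lay in ECs without a finer name, 254 in gCap, 111 in aCap, 78 in venous and 31 in arterial ECs. The class was made of different sub-clusters in the genotypes, with 293 and 312 gCap ECs in WT versus 177 and 82 in ERG CKO and 208 and 240 ECs without a finer name in WT versus 350 and 282 in ERG CKO, and the part of this in the value over all ECs was not tested. The level was 56.3 and 72.2 CPM in WT and 69.6 and 98.7 CPM in ERG CKO, and the share of positive cells was 19.4% and 24.5% in WT versus 26.2% and 33.7% in ERG CKO. The log2 fold change was 0.33 (SE 0.20, edgeR adjusted p = 0.478). Mast cells or basophils had the highest Csf1 level, with 1248 and 1231 CPM in WT and 844 CPM in ERG CKO replicate 1, but from only 20, 11 and 3 cells, and ERG CKO replicate 2 had none. Neutrophils held 205 and 176 CPM in WT and 110 and 284 CPM in ERG CKO (log2 fold change 0.08, SE 0.44), and fibroblasts 38.4 and 58.9 CPM in WT and 48.6 and 42.8 CPM in ERG CKO (log2 fold change 0.02, SE 0.33). The genotype effect in neutrophils and ECs differed by −0.23, with 0.126% of 10318 genes called. Mural cells, the contractile cells around vessels, were positive for Csf1 in 24.1% of 58 and 16.3% of 43 cells in WT versus 4.55% of 22 and 0% of 10 in ERG CKO. Their median depth was 8030 and 4461 UMIs in WT and 4518 and 1071 UMIs in ERG CKO. When clustered again, 55 of the 133 mural cells were led by genes such as Clec14a, Cd93 and the EC marker Cldn5. The part of depth and of these cells was not tested. Only 30 Csf1 UMIs were read, too few for the test, and 0.0749% of 4006 genes were called in that class.

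Il6 was carried by 2 sources of very different size. Alveolar macrophages held 39.5% of its UMIs, at 55.2 and 63.8 CPM in WT and 89.3 and 33.9 CPM in ERG CKO, with 12.4% to 20.4% of cells positive and no separation of the genotypes (log2 fold change 0.09, SE 0.33, edgeR adjusted p = 0.998). Mast cells or basophils held 38% from 34 cells in all, with 160 and 368 UMIs in WT versus 22 and 0 UMIs in ERG CKO, and levels of 1938, 6861 and 1856 CPM in the 3 libraries that had such cells. With every cell thinned to 1000 UMIs, the order of these sources turned, and mast cells or basophils held 115 of 184 Il6 UMIs and alveolar macrophages 38. Fibroblasts stood at 28.1 and 29.4 CPM in WT and 24.8 and 0 CPM in ERG CKO, and their genotype effect differed from that of alveolar macrophages by −0.98 (SE 0.47, edgeR adjusted p = 0.706), with 0.53% of 10940 genes called. In ECs 25 of the 37 UMIs lay in venous ECs, with 4 and 20 UMIs in WT versus 1 and 0 in ERG CKO, too few to be tested. In proliferating cells, where 0.0% of 6594 genes were called, Il6 stood at 68.8 and 24.4 CPM in WT and 5.27 and 4.48 CPM in ERG CKO (log2 fold change −3.19, SE 0.72, edgeR adjusted p = 0.146), and 34 of its 55 UMIs came from a WT cell with all 8 alveolar macrophage markers.

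Summed over all cells of a library, Il6 stood at 29.9 and 42.4 CPM in WT and 18.9 and 7.99 CPM in ERG CKO. In such sums fewer cells of a class and less RNA per cell cannot be told apart. The log2 fold change was −1.40 (SE 0.41) and was not called (edgeR adjusted p = 0.520), with 0.0% of 14154 genes called, while DESeq2 called it (adjusted p = 0.0364). With each library left out in turn the log2 fold change ranged from −2.18 (without ERG CKO replicate 1) to −0.94 (without ERG CKO replicate 2), and without alveolar macrophages it was −2.46 (edgeR adjusted p = 0.303). Without mast cells or basophils it was −0.37 (SE 0.37, edgeR adjusted p = 0.962).

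**Figure D4:**
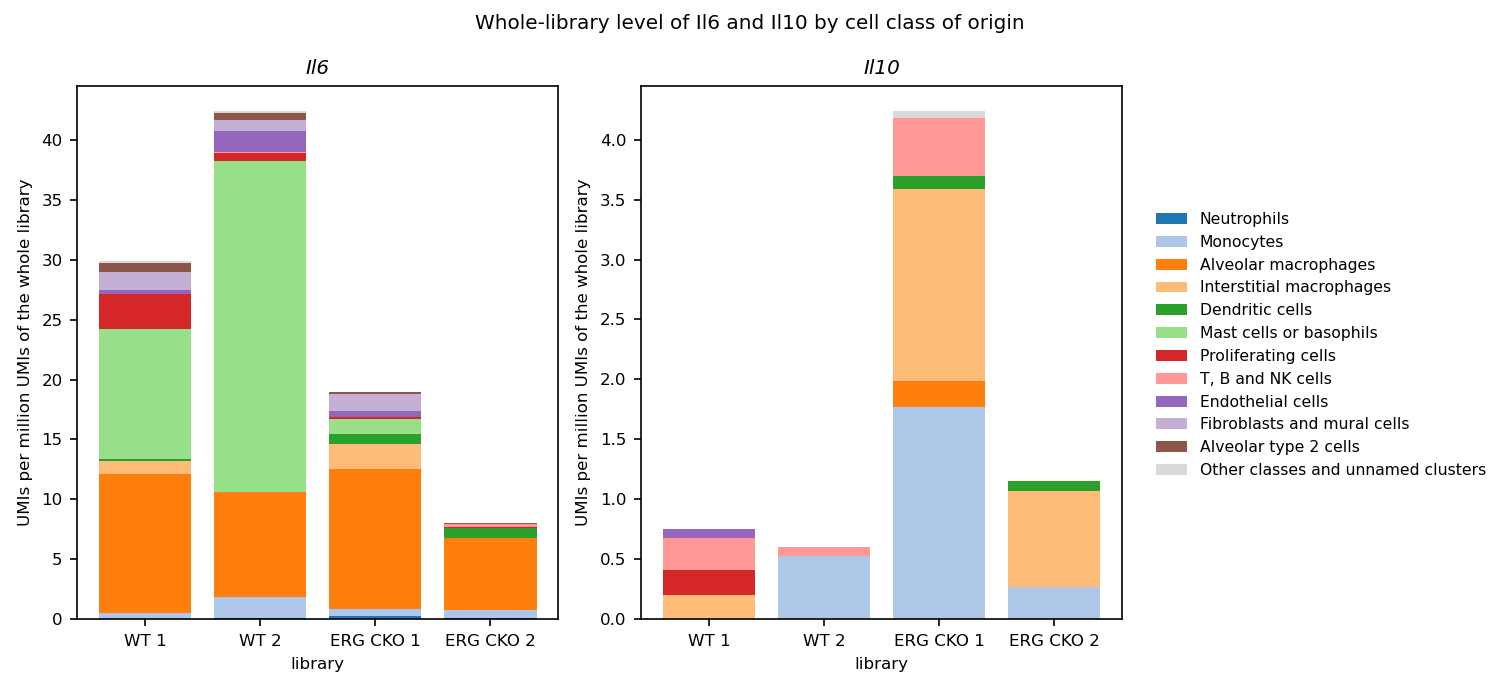
Whole-library level of Il6 and Il10 (CPM of the whole library, stacked by the cell class they came from) in each library. For Il6 the part from mast cells or basophils is large in both WT libraries, small in ERG CKO replicate 1 and 0 in ERG CKO replicate 2, and Il10 is highest in ERG CKO replicate 1, with 79 UMIs.

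The UMIs of Tnf were spread over many classes. The highest level was in mast cells or basophils, at 96.9 and 224 CPM in WT and 759 CPM in ERG CKO replicate 1, from only 29 UMIs in 34 cells. Alveolar macrophages held 47.2% of its UMIs, dendritic cells 11.9%, non-classical monocytes 8.33%, neutrophils 7.94% and T cells 7.14%. In alveolar macrophages the level was 68.5 and 103 CPM in WT and 95.5 and 41.0 CPM in ERG CKO (log2 fold change −0.28, SE 0.32), and the share of positive cells was 41.3% and 48.1% in WT versus 38.9% and 26.3% in ERG CKO. Neutrophils held 156 and 190 CPM in WT and 84.5 and 104 CPM in ERG CKO without overlap, and dendritic cells 123 and 80.0 CPM in WT and 65.4 and 65.3 CPM in ERG CKO. Neither was called (neutrophils log2 fold change −0.85, SE 0.29, edgeR adjusted p = 0.953, and dendritic cells −0.61, SE 0.27, adjusted p = 0.555). The difference between dendritic cells and alveolar macrophages was −0.31 (SE 0.38), with 0.537% of 9687 genes called. T cells stood at 12.2 to 18.2 CPM in all 4 libraries, the most even source (log2 fold change −0.11, SE 0.32).

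Il10 was rare, with 111 UMIs in 44 cells. Interstitial macrophages and non-classical monocytes each held 37.8% of them. Interstitial macrophages had 3 and 0 UMIs in WT versus 30 and 9 in ERG CKO, and 24 of the 30 came from 1 cell that also held 39 UMIs of Il6. Non-classical monocytes had 0 and 6 UMIs in WT versus 33 and 3 in ERG CKO, with 0%, 1.83%, 8.41% and 2.59% of cells positive. ERG CKO replicate 1 thus held most of the Il10 in both classes, and ERG CKO replicate 2 was close to WT in monocytes. In all cells summed the log2 fold change was 2.03 (SE 0.69), which was not called (edgeR adjusted p = 0.604).

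**Figure D5:**
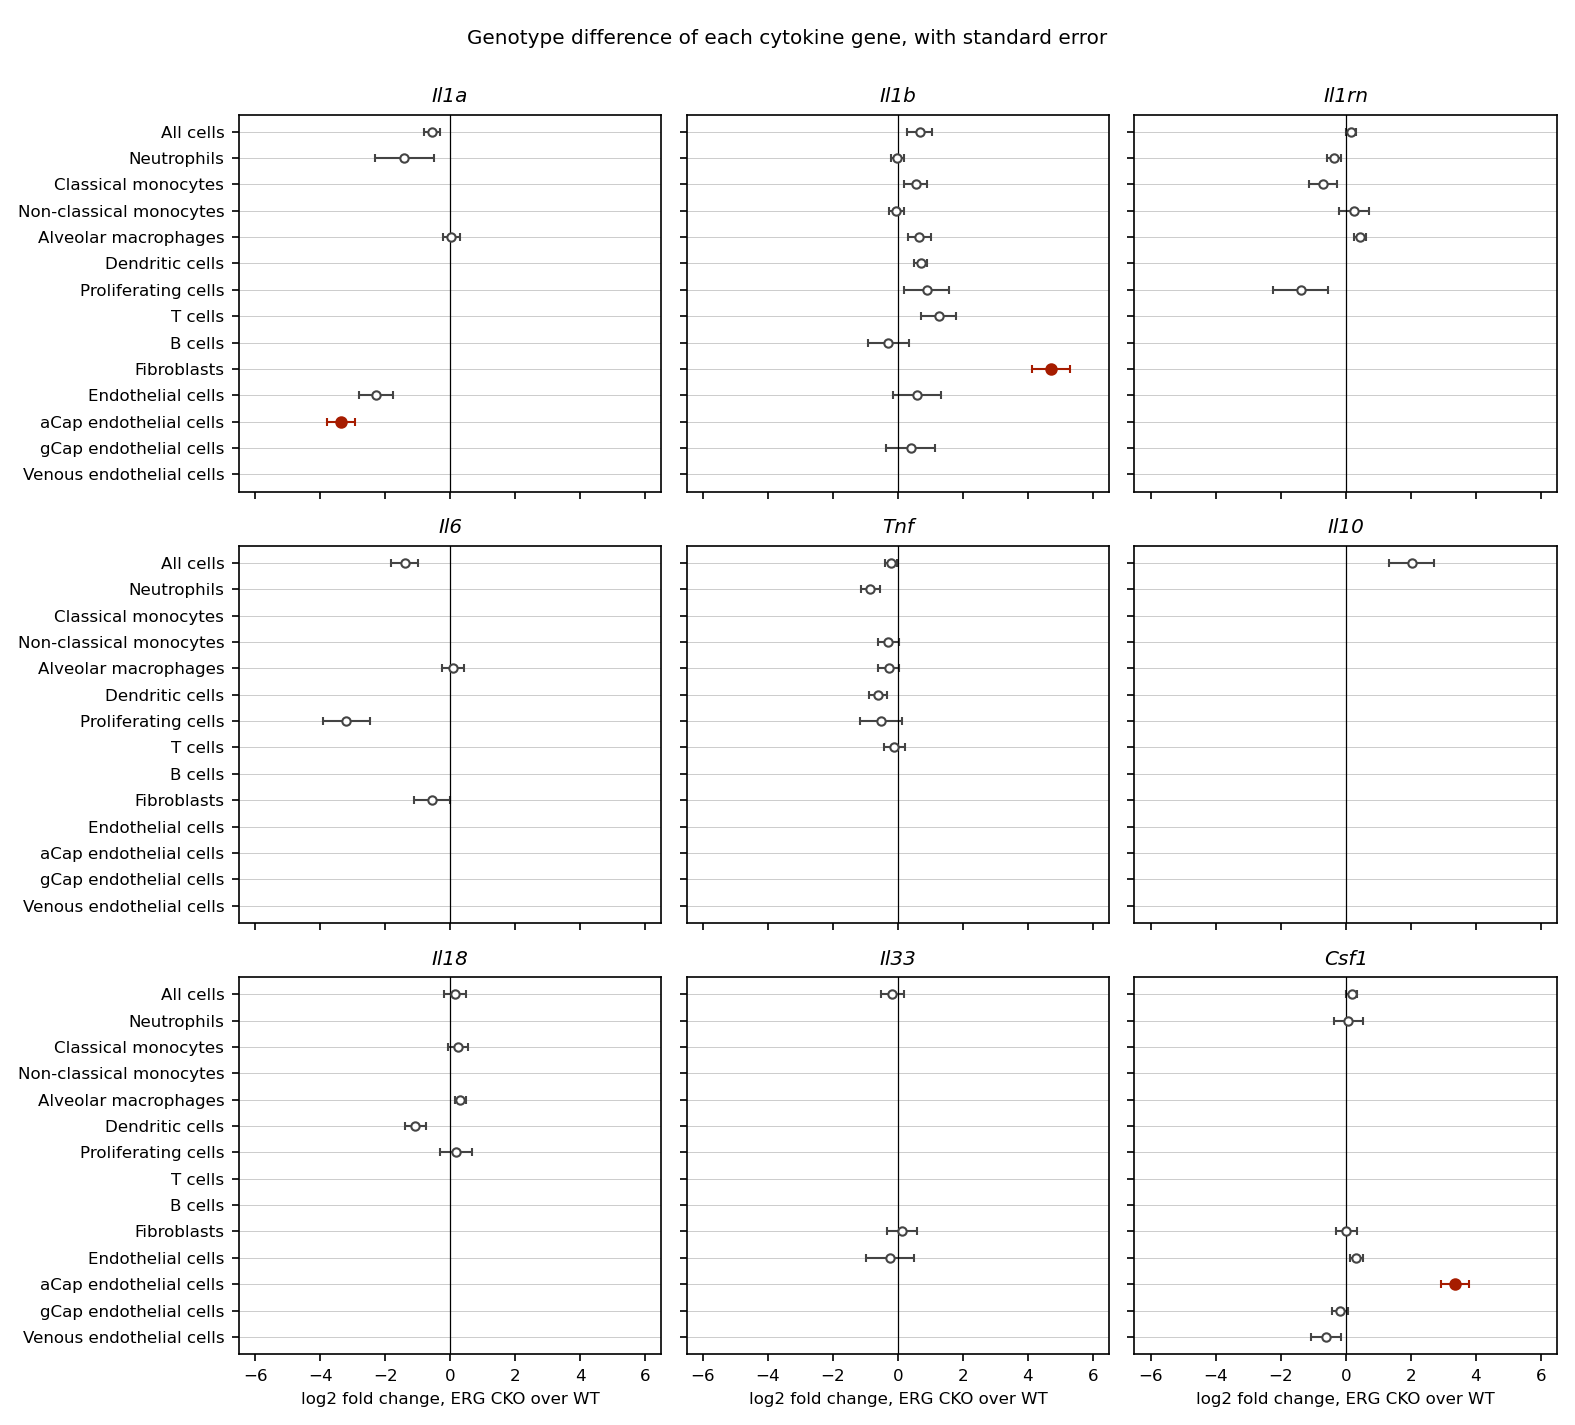
Log2 fold change of ERG CKO over WT with its standard error for each cytokine gene (panels) in each class where it could be tested, in all cells and in EC sub-clusters. Il1b in fibroblasts (4.70) and Il1a (−3.35) and Csf1 (3.37) in aCap ECs are the called values, and the other estimates were not called.

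In total 36 tests of a cytokine in a named class were possible in 10 of the 13 classes fitted, with 18 higher and 18 lower in ERG CKO. Of these 1 was called and 9 had an unadjusted p under 0.05, while over the 79118 tests of all genes in the 13 classes 0.526% were called and 7.2% had an unadjusted p under 0.05. Only members that passed the filter on low counts enter these counts, which are a description. B cells, with 0.306% of 6854 genes called, gave 1 cytokine test and no call, and in mural cells, NK cells (0.0194% of 5167 genes called) and platelets (0.0% of 1488 genes called) no cytokine passed the filter and none was tested. In all cells summed 0 of 9 cytokines were called by edgeR, 2 of them had an unadjusted p under 0.05 and DESeq2 called Il6. The differences of the genotype effect between the leading classes were −0.04 for Il1b (neutrophils and non-classical monocytes, 0.0% of 5635 genes called) and −0.20 for Il18 (alveolar macrophages and proliferating cells, 0.0102% of 9795 genes called), and none but that of Il1a was called.

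The share of positive cells was compared in 58 pairs of cytokine and class. In 25 pairs (43.1%) the WT and ERG CKO libraries did not overlap, 13 higher and 12 lower in ERG CKO. Over 120319 pairs of any gene and class, 20.8% were higher and 17.6% lower without overlap, a background near the share among cytokines. With 2 libraries a group the exact two-sided permutation test cannot give a p below 0.333, and the smallest adjusted p was 0.773. Among the pairs without overlap, the mean share in dendritic cells positive for Il1a was 15.4% in WT versus 1.91% in ERG CKO, in alveolar macrophages positive for Tnf 44.7% and 32.6%, and in ECs positive for Csf1 21.9% and 29.9%.

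The receptors showed where each cytokine could be received, with classes ranked by mean CPM among the named classes only. Il1r2, the decoy receptor that binds interleukin-1 without signalling, was highest in neutrophils at 2015 and 1394 CPM in WT and 1920 and 1738 CPM in ERG CKO. Il1r1, the signalling receptor, was highest in fibroblasts with a mean of 46.4 CPM, but the libraries overlapped those of ciliated cells. Il1rap, its partner chain, was highest in neutrophils with 165 CPM. Il1rl1, the receptor of interleukin-33, had its highest mean in mast cells or basophils, with 53.1 CPM from only 11 UMIs. This was not apart from dendritic cells, with 47.6 CPM from 118 UMIs. Il18r1, the receptor of interleukin-18, had its highest mean in NK cells with 167 CPM, not apart from mast cells or basophils with 156 CPM. Non-classical monocytes led for Il6ra (244 CPM), Il10ra (265 CPM), Tnfrsf1b (357 CPM) and Csf1r (984 CPM). Their libraries overlapped those of neutrophils for Il6ra and of interstitial macrophages for Csf1r. Il6st, the chain shared by receptors of the interleukin-6 family, stood at 257 CPM in lymphatic ECs and 247 CPM in ECs, and Tnfrsf1a led in neutrophils with 518 CPM. Il18bp, the soluble inhibitor of interleukin-18, had its highest mean in interstitial macrophages with 24.4 CPM from only 11 UMIs, not apart from lymphatic ECs.

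None of 92 tests of the 13 receptor genes in the named classes was called by edgeR, against 0.526% over all genes, and 11 had an unadjusted p under 0.05, against 7.2% over all genes. Of 142 tests of 14 signalling and response genes 0 were called and 22 had an unadjusted p under 0.05, and of 37 tests of 20 other cytokines 0 were called and 5 had an unadjusted p under 0.05. Of 75 tests of 10 genes of cytokine maturation and inhibition 1 was called and 7 had an unadjusted p under 0.05. The called gene was Pycard, the adaptor of the inflammasome, in B cells, at 54.5 and 46.7 CPM in WT and 98.9 and 102 CPM in ERG CKO (log2 fold change 1.03, SE 0.20, edgeR adjusted p = 0.0277), in a class where 0.306% of genes were called. This call rested on all libraries, with adjusted p between 0.0506 and 0.273 when any 1 was left out, and it was lost in DESeq2 (adjusted p = 0.981), after thinning (0.914), without the highest cell (0.669) and without alignment of the libraries (0.0956). In aCap ECs 1 of 5 receptor genes and 2 of 11 signalling genes tested rose and none fell, where 9.7% of all genes tested were called and 4.39% were called higher. These were Il6st (log2 fold change 0.86, edgeR adjusted p = 0.0252, after thinning 0.405), Socs3, the feedback inhibitor of interleukin-6 signalling (1.40, edgeR adjusted p = 0.00102), and Zfp36, which shortens the life of cytokine transcripts (0.78, edgeR adjusted p = 0.0396). Socs3 was called in every alternative, whereas Il6st was not called in DESeq2 (adjusted p = 0.138) or without WT replicate 2 (0.242) or ERG CKO replicate 2 (0.0677) or in ECs picked by Ednrb and Car4 (0.0581), and Zfp36 not in DESeq2 (0.0641) or without WT replicate 1 (0.0786), WT replicate 2 (0.0518) or ERG CKO replicate 1 (0.335). The median log2 fold change in aCap ECs was 0.62 over the 5 receptor genes, 0.63 over the 11 signalling genes and 0.01 over all genes tested there. In venous ECs it was −0.58 over 4 receptor genes and −0.73 over 10 signalling genes. For gCap ECs the medians were 0.19 over 5 and −0.02 over 13, and for arterial ECs 0.08 over 2 and −0.17 over 6.

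The genes whose level over the 18 classes followed a cytokine most closely are given as a description, by Pearson's r of log2(CPM + 10) over the class means, whose points share the same 4 libraries. For Il1a they were P2ry13 (r = 0.90), Bst1 (0.89) and Il1rn (0.86), and for Il1b Igsf6 (0.95), Pirb (0.93) and Cd300a (0.93). Il1rn was followed by Cd300lf (0.95), Fpr2 (0.93) and P2ry13 (0.92), and Il18 by Tfec (0.93), Bend6 (0.91) and Ffar2 (0.91). Il33 was followed by Rtkn (0.94), Thbs3 (0.94) and Fam69b (0.93), and Il10 by Cd5l (0.99), Spic (0.97) and Fcna (0.96). The genes closest to Il6 were Slc7a8 (0.95), Col11a2 (0.91) and Csf2rb2 (0.91), to Tnf Nlrp3 (0.92), Csf2rb2 (0.91) and Alox5 (0.90), and to Csf1 Ldhc (0.85), Kcnj2 (0.85) and Isg15 (0.85). Those of Il6 and Csf1 all had their own highest level in mast cells or basophils, a class of 34 cells.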

How the data were processed

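Lungs of 2 WT and 2 ERG CKO mice were digested, red cells were lysed and single cells were captured by the study on the 10x GemCode platform. The submitters' processing notes name mm10 and Cell Ranger 3.1.0. The authors deposited raw UMI counts per gene and cell without normalization, a single table of 9363 barcodes and 20076 gene rows (13 repeated symbols), with at least 500 UMIs and 300 genes and up to 49.2% mitochondrial UMIs per cell. The study kept fewer cells after a filter whose limits were not given in the sources used here, and no such filter was applied. Its own cell names were not used here.

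Cells were normalized and clustered in Seurat 5.3.0 (R 4.3.3; 2000 variable genes without the cytokines and pathway lists, 30 dimensions aligned by canonical correlation between libraries, resolution 0.8), and classes were named where at least 3 listed markers were detected in 10% of cells at a log2 fold of 1 or more against all remaining cells. Related lineages (fibroblasts with mural cells, ciliated with club cells) and an erythroid signal were exempted from the rule against mixed markers, a choice made after the clusters were seen. ECs, fibroblasts and mural cells were clustered again at resolution 0.6 over 20 dimensions, with a log2 fold of 0.5 for names. Scrublet in scanpy 1.11.5 called 66 doublets (0.705%), which stayed in the main values.

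UMIs were summed per library and class, and CPM are UMIs per 1000000 UMIs of that class. Classes with at least 10 cells in every library were tested with edgeR 4.0.16 (TMM, filterByExpr, quasi-likelihood test), Benjamini-Hochberg over all genes of a class, called at an adjusted p of 0.05, and SE is the log2 fold change divided by the square root of F. Shares used exact permutation tests and Wilson 95% intervals, which like the limit of 3 counts for a 0 cover counting error only. The precision was set by 2 mice a group and by 913 cells under 1000 UMIs. Promoter and gene coordinates came from RefSeq (GRCm38.p6) and GENCODE (GRCm38). The members, lists and tests were chosen with earlier results of these data known. Named were the 9 cytokines in every class, list genes that were called, the leading class of receptors and Il18bp, and the 3 genes closest to each cytokine among those with 20 CPM in some class. Alternatives were DESeq2 1.42.0, other size factors, no filter, the replicate number as a block, each library left out, doublets or cells over 10% mitochondrial UMIs left out, thinning to 1000 UMIs, the highest cell left out, and other clusterings. The EC sub-clusters, cells with Ednrb and Car4, a minimum of 5 cells and sums without mast cells or basophils or without the leading class were added after seeing the data. The tests were checked on simulated data.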

Additional observations from a re-analysis of the deposited data

Results flagged for a closer look

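The genotype effect on Il1a differed between ECs and alveolar macrophages in a test of the difference itself, by −2.30 on the log2 scale (ECs minus alveolar macrophages, edgeR quasi-likelihood adjusted p = 0.0202). Il1a was lower in both ERG CKO libraries than in both WT libraries among ECs, at 1.93 and 4.10 against 8.35 and 18.1 CPM, and overlapped among alveolar macrophages, at 44.3 and 35.9 against 28.9 and 52.8 CPM. The difference was not called without WT replicate 2 (edgeR adjusted p = 0.0609), without ERG CKO replicate 1 (−1.56, adjusted p = 0.180) or with the replicate number as a block (−2.17, adjusted p = 0.0816).

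The genotype effect on Csf1 differed between aCap and gCap ECs by 3.54 on the log2 scale (aCap minus gCap, edgeR quasi-likelihood adjusted p = 4.7e-05), a comparison chosen after the values were seen. Both ERG CKO libraries were higher in aCap ECs and neither group stood apart in gCap ECs.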

How the results depend on the processing

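The calls of Il1a and Csf1 in aCap ECs stood in every alternative in which the gene was tested. In the main fit each gene passed the filter on low counts through 1 group alone, which set its direction. The alternatives reused the same libraries, and the sub-cluster was chosen after values were seen, so they give no separate support. In fibroblasts Il1b could not be tested without the library or the cell that held most of its UMIs, on which its call rests. It was under the filter on low counts without its highest cell, without ERG CKO replicate 1 and after thinning, and in aCap ECs neither gene was tested after thinning. Among the results tested in the classes, 434 of 503 recomputed log2 fold changes of cytokines kept their direction and their side of the threshold, and 51 changed direction, in 20 of 36 results, and none of these was called. In all cells 126 of 133 kept both. Leaving out a library gave lone samples, which were assumed to vary like the other group. Log2 fold changes that changed direction were, with cells over 10% mitochondrial UMIs left out −0.0144 for Il1a in alveolar macrophages, 0.0241 for Il1b in B cells and 0.0149 for Il1b in neutrophils, and, with the highest cell of the class left out −0.0539 for Il1a in alveolar macrophages, 0.26 for Il1b in B cells, −0.38 for Il1b in ECs, −1.10 for Il1b in proliferating cells, −0.15 for Il6 in alveolar macrophages, 0.0556 for Il6 in fibroblasts, 0.0138 for Tnf in T cells, −0.0061 for Il18 in classical monocytes, −0.0669 for Il18 in proliferating cells, 0.0398 for Il33 in ECs and −0.0772 for Csf1 in neutrophils, and, with doublets left out 0.25 for Il1b in B cells, and, with no filter on low counts 0.0742 for Il1b in neutrophils, and, after thinning to 1000 UMIs 0.0667 for Il1b in non-classical monocytes, −0.0295 for Il6 in alveolar macrophages, −0.25 for Csf1 in neutrophils and −0.0188 for Csf1 in all cells, and, in DESeq2 −0.0442 for Il33 in fibroblasts and −0.0388 for Csf1 in fibroblasts, and, at resolution 1.2 −0.0102 for Csf1 in fibroblasts, and, without alignment of the libraries −0.0036 for Csf1 in fibroblasts. In all cells without alveolar macrophages, the leading class, the value was 0.0142 for Tnf and −0.0889 for Il18. In all cells without alveolar type 2 cells, the leading class, the value was 0.63 for Il33. In all cells without ECs, the leading class, the value was −0.21 for Csf1. Il6 in all cells was called in DESeq2 (−1.42, adjusted p = 0.0364). The main counts of calls were 1 for cytokine tests in classes, 0 for cytokines in all cells, 1 for maturation and inhibition genes and 0 for the other lists. In DESeq2 the counts that changed were 2 for cytokine tests in classes, 1 for cytokines in all cells, 0 for maturation and inhibition genes and 1 for signalling and response genes. With no filter on low counts the counts that changed were 7 for cytokine tests in classes, 4 for receptor genes, 4 for maturation and inhibition genes, 5 for signalling and response genes and 5 for other cytokines. The 7 were Il1a in ECs (−2.27) and dendritic cells (−3.98), Il6 in ECs (−1.99) and proliferating cells (−3.23), and Il1b in fibroblasts (4.70), dendritic cells (0.76) and alveolar macrophages (0.66). With the replicate number as a block the counts that changed were 3 for cytokine tests in classes, 1 for receptor genes, 2 for maturation and inhibition genes and 2 for signalling and response genes. After thinning to 1000 UMIs the counts that changed were 0 for cytokine tests in classes, 0 for maturation and inhibition genes and 2 for signalling and response genes. With the highest cell of the class left out the counts that changed were 0 for cytokine tests in classes, 0 for maturation and inhibition genes and 2 for signalling and response genes. Without alignment of the libraries the counts that changed were 0 for maturation and inhibition genes, 1 for signalling and response genes and 1 for other cytokines. With cells over 10% mitochondrial UMIs left out the counts that changed were 1 for signalling and response genes. The share of positive cells after thinning was 2.79% for Il1a in alveolar macrophages, 14.3% for Il1rn in alveolar macrophages, 4.09% for Il6 in alveolar macrophages, 6.97% for Tnf in alveolar macrophages, 37.8% for Il18 in alveolar macrophages, 20.5% for Il33 in alveolar type 2 cells and 6.28% for Csf1 in ECs. With at least 2 UMIs it was 14.5% for Il1a in alveolar macrophages, 54.8% for Il1rn in alveolar macrophages, 10.6% for Il6 in alveolar macrophages, 20.5% for Tnf in alveolar macrophages, 82.4% for Il18 in alveolar macrophages and 7.77% for Csf1 in ECs. It was 98.1% for Il1b in neutrophils without doublets and 93.6% for Il18 in alveolar macrophages at up to 10% mitochondrial UMIs. As means over the 4 libraries, the share of a gene's UMIs after thinning was 37.7% for Il1a in alveolar macrophages, 75.4% for Il1b in neutrophils, 41.3% for Il1rn in alveolar macrophages, 32.2% for Il6 in alveolar macrophages, 26.3% for Tnf in alveolar macrophages, 84% for Il18 in alveolar macrophages and 45.8% for Il33 in alveolar type 2 cells, and the mean level of Il10 in interstitial macrophages was 28.9 CPM. Pooled over libraries as in the report, the thinned shares were 36% for Il1a, 20.7% for Il6 and 40.7% for Il1rn in alveolar macrophages and 31.8% for Il33 in alveolar type 2 cells, from 18, 38, 100 and 14 UMIs, while neutrophils held 51.2% of Il1rn and mast cells or basophils 62.5% of Il6. Thinning gives every cell the same weight. With each library left out in turn, the log2 fold change ranged from −0.38 to 0.49 for Il1a in alveolar macrophages, −0.28 to 1.204 for Il1b in alveolar macrophages, −1.81 to 1.64 for Il1b in B cells, −0.47 to 2.87 for Il1b in ECs, −0.20 to 0.16 for Il1b in neutrophils, −0.39 to 0.44 for Il1b in non-classical monocytes, −0.57 to 1.95 for Il1b in proliferating cells, −0.0113 to 0.95 for Il1rn in non-classical monocytes, −0.78 to 0.60 for Il6 in alveolar macrophages, −1.02 to 0.18 for Tnf in alveolar macrophages, −0.61 to 0.0984 for Tnf in non-classical monocytes, −0.41 to 0.21 for Tnf in T cells, −0.0141 to 0.58 for Il18 in alveolar macrophages, −0.59 to 0.79 for Il18 in proliferating cells, −2.46 to 0.41 for Il33 in ECs, −0.31 to 0.28 for Csf1 in fibroblasts, −0.69 to 0.59 for Csf1 in neutrophils, −0.0016 to 0.38 for Il1rn in all cells, −0.39 to 0.55 for Il18 in all cells, −0.79 to 0.24 for Il33 in all cells, −0.0042 to 0.37 for Csf1 in all cells, −1.15 to 0.56 for Csf1 in venous ECs, −0.34 to 0.85 for Il1b in gCap ECs and −0.41 to 0.15 for Csf1 in gCap ECs. The differences of the genotype effect between classes ranged from −2.92 to −1.56 for Il1a (alveolar macrophages and ECs), −0.60 to 0.53 for Il1b (neutrophils and non-classical monocytes), −0.85 to 0.45 for Tnf (alveolar macrophages and dendritic cells), −0.63 to 0.39 for Il18 (alveolar macrophages and proliferating cells), −1.37 to 0.34 for Il33 (fibroblasts and ECs) and −0.65 to 0.14 for Csf1 (ECs and neutrophils). The counts of calls ranged from 2 to 7 for cytokine tests in classes, 0 to 3 for receptor genes, 0 to 1 for maturation and inhibition genes, 2 to 7 for signalling and response genes and 0 to 4 for other cytokines. Leaving out a library brought calls that all libraries together did not give. Without WT replicate 1 this was Il1a in ECs (adjusted p = 0.0034). Without WT replicate 2 these were Il1b in classical monocytes (1.47, adjusted p = 0.0179), dendritic cells (0.76, adjusted p = 0.0205) and ECs (2.87, adjusted p = 0.0222). Without ERG CKO replicate 1 these were Il1b in classical monocytes (0.75, adjusted p = 0.000677) and proliferating cells (1.67, adjusted p = 0.0214). Without ERG CKO replicate 2 these were Il1a in ECs (adjusted p = 0.0418), Il1b in alveolar macrophages (1.204, adjusted p = 0.0289) and dendritic cells (0.96, adjusted p = 0.0434), Il10 in non-classical monocytes (2.63, adjusted p = 0.00851), untested otherwise, and Il1rn (−3.35, adjusted p = 0.000254) and Il6 (−3.15, adjusted p = 0.00591) in proliferating cells. With the replicate block Il1a in ECs (−2.16, adjusted p = 0.00452) and Il1rn in alveolar macrophages (0.44, adjusted p = 0.0492) were called as well. The difference on Il1a between ECs and alveolar macrophages was −2.17 with the replicate block (adjusted p = 0.0816). The replicate numbers are shared by the groups, and same-numbered mice were of the same sex by Xist and Ddx3y, so that the block is also a sex block. Nothing in the labels ties the numbers to a litter or day, and with 2 pairs they were not taken to pair the mice. The correlation of deviations of same-numbered libraries was 0.233 over 14154 genes and 0.122 without sex-linked genes. The causes of these changes were not tested, and depth limits the statements on Il10, Il33 and Il6 outside alveolar macrophages and mast cells or basophils.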

Other observations

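Joint reading of cytokines is described here over the 625 alveolar macrophages of all libraries. No test was made, since cells of 1 library share their source and cells with more UMIs show more genes. Csf1 was read in 2 of the 243 cells with Tnf (0.823%) and in 1.57% of the 382 without it, too few cells to give a direction. Il1a was read in 43.4% of the 106 alveolar macrophages with Il6 and in 26.4% of the 519 without it, at median depths of 17262 and 15229 UMIs, and Tnf in 49.1% and 36.8%. Il1rn was read in 81.1% of alveolar macrophages with Il18 and in 29.2% of those without it, but these cells differed in depth, with medians of 16482 and 3640 UMIs.

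Csf1 in an unnamed cluster of 291 cells with few UMIs per cell stood at 49.8 and 52.7 CPM in WT and at 167 and 168 CPM in ERG CKO, from 51 UMIs. Il1b in ECs lay mostly outside the named EC sub-clusters, with 189 of 232 UMIs, and 81 of the 129 UMIs in ERG CKO replicate 1 came from 1 cell that also held 6 of 8 neutrophil markers.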
